A study of Mus musculus with 4 samples.

Results

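Tall peaks away from the ends of protein-coding genes were followed in ATAC-seq data from mouse CD8+ T cells. ATAC-seq uses the Tn5 transposase to tag DNA that is open to it, so a tall peak is a stretch that yielded many tagged fragments. The set was chosen from the deposited table by height and place. A peak was taken when its mean over the 4 libraries was at least 50 raw reads and it lay more than 500 bases from every end of a protein-coding gene, and a chromosome 17 region beside an 18S ribosomal RNA pseudogene was left out. This gave 10 of 3187 listed peaks. There were 4 in Sfi1, 1 each in Sp140, Zc3h7a and Gm20783, and 3 lone peaks outside protein-coding genes on chromosomes 11 and 2.

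The cells were splenic CD8+ T cells isolated with magnetic beads from OTI:Cas9 mice, so both groups came from animals that carry Cas9. Both groups were electroporated with Cas9 ribonucleoprotein and cultured. The sgNTC group (2 libraries, genotype label Prdm12-wt) received the guide labelled sgNTC, although the design text describes its control cells as unedited, and the sgPrdm12 group (2 libraries, genotype label Prdm12-ko) received a guide against Prdm12, a zinc finger gene known from pain-sensing neurons. Replicate 1 of each group belonged to batch 1 and replicate 2 to batch 2. Age and sex were not given in the labels, and the labels are silent on whether each library had its own animal or culture. The p-values then reflect nothing beyond the variation among these 4 libraries, part or all of which may be technical. Depth over the listed peaks ranged from 20427 reads in sgPrdm12 replicate 2 to 58068 in sgNTC replicate 2, with 28749 and 29043 in the batch 1 libraries. No listed peak lay within 1000 bases of Prdm12. The deposited counts per peak hold no sequence, so the edit could not be checked from them. None of 10 CD8 T cell marker genes, Cd8a and Cd3e among them, had a listed peak within 1000 bases of its span, and of 19 markers of other blood cells only Zbtb7b had one, with 2 and 11 reads in the sgNTC libraries against 3 and 9. The table thus gives no check of the labelled cell type.

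Tall ATAC-seq peaks away from genes are often found at repeated sequence. A genome assembly may hold fewer copies of a repeat than the chromosomes do, and reads from all copies are then placed on the few that are listed. Sfi1 encodes a centrin-binding protein of the centrosome, known in yeast for duplication of the spindle pole body. Sp140 and its neighbours Sp110 and Sp100 encode speckled proteins, which sit in nuclear bodies and carry domains that bind DNA or modified histones, and in the mouse their cluster on chromosome 1 is known for related and duplicated copies. Zc3h7a encodes an RNA-binding protein with CCCH zinc fingers. Gm20783 is a predicted gene.

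How far the loci are present in several copies was looked at in the promoter windows of RefSeq (build GRCm38.p6, 250 bases before to 50 after each annotated start), because no genome sequence was used here and no window overlapped any of the 10 peaks. Of 27025 genes with a window, 1595 (5.90%) had another gene's window that matched over at least 200 bases at 95% identity or more. Of the 4 genes with a window within 100000 bases of the Sp140 peak, Sp140 and Sp100 had such a match. The Sp140 window, which lies 7058 bases from the peak, matched the windows of A530032D15Rik and C130026I21Rik, both also on chromosome 1. The 3 stretches are shown over the 255 bases that they share (chr1:85600460-85600714, plus strand; chr1:85109813-85110067, minus strand; chr1:85270517-85270771, minus strand), with the one position that differs in capitals.
Sp140: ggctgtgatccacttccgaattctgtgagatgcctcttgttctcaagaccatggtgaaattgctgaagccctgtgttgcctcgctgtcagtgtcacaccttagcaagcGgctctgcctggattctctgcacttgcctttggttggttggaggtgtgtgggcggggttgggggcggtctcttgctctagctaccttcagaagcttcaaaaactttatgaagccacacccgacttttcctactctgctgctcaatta
A530032D15Rik: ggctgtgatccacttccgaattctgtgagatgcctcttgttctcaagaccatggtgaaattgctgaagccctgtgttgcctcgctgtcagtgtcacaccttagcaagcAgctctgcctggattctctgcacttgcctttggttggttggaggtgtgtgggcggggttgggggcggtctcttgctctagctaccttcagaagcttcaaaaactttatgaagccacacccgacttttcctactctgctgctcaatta
C130026I21Rik: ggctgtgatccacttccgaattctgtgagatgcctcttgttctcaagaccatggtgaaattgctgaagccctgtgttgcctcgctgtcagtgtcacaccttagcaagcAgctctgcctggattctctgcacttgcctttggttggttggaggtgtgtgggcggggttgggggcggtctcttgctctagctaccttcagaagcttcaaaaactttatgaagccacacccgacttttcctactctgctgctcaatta
Each of the other stretches differed from that of Sp140 by G109A alone, counted from 1 at the 5′ end of the printed stretch. This is an identity of 99.61% over the 255 bases and not over the whole windows. The listed peak nearest to the A530032D15Rik stretch was 269980 bases away, and the Sp140 peak, at 320387 bases, was the nearest to that of C130026I21Rik. No near-identical window was found for the 4 genes with a window near the Sfi1 peaks, the 6 near Zc3h7a, the 5 near Gm20783, or the 2, 4 and 1 near the lone peaks. Sfi1 has no window in that table. These windows are not the peaks themselves, so several copies were seen only beside Sp140, and the part that copy number has in the height of any of the 10 peaks was not tested.

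At Gm20783 a second, low peak lay under a window that could be read. The window belongs to an annotated start inside the span of 4930526I15Rik, a long non-coding RNA gene that the tall peak overlaps too. It (chr9:124423537-124423836, plus strand) is shown with the 73 bases that the low peak covers in capitals.
4930526I15Rik: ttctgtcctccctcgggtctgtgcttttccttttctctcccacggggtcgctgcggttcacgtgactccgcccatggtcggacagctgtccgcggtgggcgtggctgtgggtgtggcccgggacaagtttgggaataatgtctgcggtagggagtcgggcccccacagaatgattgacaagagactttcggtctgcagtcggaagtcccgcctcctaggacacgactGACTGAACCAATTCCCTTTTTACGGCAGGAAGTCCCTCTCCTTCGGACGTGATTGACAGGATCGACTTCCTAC
The low peak (chromosome 9, 124423764 to 124424046) ended 314 bases before the tall one with raw counts of 6 and 14 for sgNTC and 18 and 2 for sgPrdm12. The GC content was 58.3% over the window and 50.7% over the 73 bases shown in capitals, against a median of 52.7% over all windows.

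Height and place were what chose the peaks, so their heights are given as a description. All 13 listed peaks with a mean of at least 50 reads lay more than 500 bases from a gene end, the 3 left-out chromosome 17 peaks among them, so the distance limit removed none. Among the 39 peaks with 30 to 50 reads, 28 (71.8%) lay within 500 bases of a gene end, and the share was 84.6% of 253 peaks with 20 to 30 reads and 59.1% of all listed peaks. The tallest peak within that distance belonged to Sp1 at 48.2 reads.

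**Figure D1:**
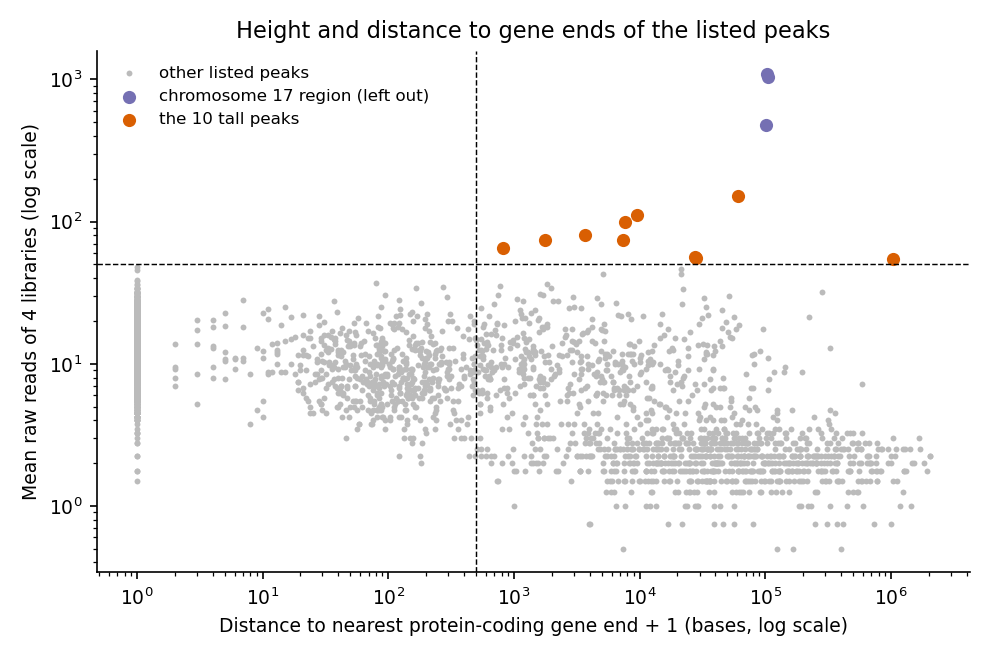
Mean raw reads over the 4 libraries (log scale) against the distance to the nearest end of a protein-coding gene plus 1 base (log scale), 1 point a listed peak, with dashed lines at 50 reads and 500 bases. All 13 peaks above 50 reads sit to the right of the distance line, and the Sp1 peak at 48.2 reads is the highest on the left.

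Just inside the height limit were the lone chromosome 2 peaks with means of 55.0 and 54.2 reads. Just outside were a lone chromosome 15 peak (75086709 to 75086984) with 46.2 reads and 2 further Sfi1 peaks with 42.8 reads each. The 10 peaks were 301 to 2245 bases wide. Per length they held 35.9 to 317 reads per 1000 bases, against a median of 22.2 over all listed peaks. The wide Sp140 peak ranked only 350 by this measure, while the Zc3h7a peak of 337 bases ranked 5. In single libraries the 10 peaks ranked between 4 and 20 by raw reads.

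Together the 10 peaks took nearly the same share of reads in both groups. In sgNTC the share was 2.42% in replicate 1 (95% Wilson interval 2.25 to 2.60) and 2.42% in replicate 2 (2.30 to 2.55). In sgPrdm12 it was 2.31% in replicate 1 (2.14 to 2.49) and 2.53% in replicate 2 (2.32 to 2.76). The sgNTC libraries lay between the sgPrdm12 libraries, so the groups overlapped. The group means were 2.42% ± 0.0027 and 2.42% ± 0.158 (SD, n = 2 each), a difference of -0.000443 percentage points (two-sided exact permutation test, p = 1.0, where 2 libraries against 2 cannot go below 0.333). Within batch 1 sgPrdm12 was lower by -0.111 percentage points and within batch 2 it was higher by 0.110. Intervals cover counting error only and leave out variation between libraries. They also treat each read as a separate molecule, which reads without molecular identifiers need not be.

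The 10 tallest peaks within 500 bases of gene ends, led by Sp1 and Cbx5, gave a measure of ordinary tall peaks. They held 1.16% and 1.14% of the reads in sgNTC and 1.10% and 1.06% in sgPrdm12. For each read in them, the 10 peaks away from gene ends held 2.09 and 2.12 in the sgNTC libraries and 2.10 and 2.38 in the sgPrdm12 libraries. The 10 peaks were chosen by height, and every gene-end peak lay below that height limit. Their excess over the gene-end peaks, taken over the libraries together, therefore follows from the choice and is no result about the loci. The comparison of the ratio between libraries is not wholly free of the choice either. Both sets were chosen by raw means, in which the deeper libraries weigh more. What this does to the ratio in each library was not tested. Against the left-out chromosome 17 peaks, the ratio was 0.287 and 0.330 in sgNTC and 0.305 and 0.341 in sgPrdm12. Both ratios were highest in sgPrdm12 replicate 2, the library with the fewest reads.

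**Figure D2:**
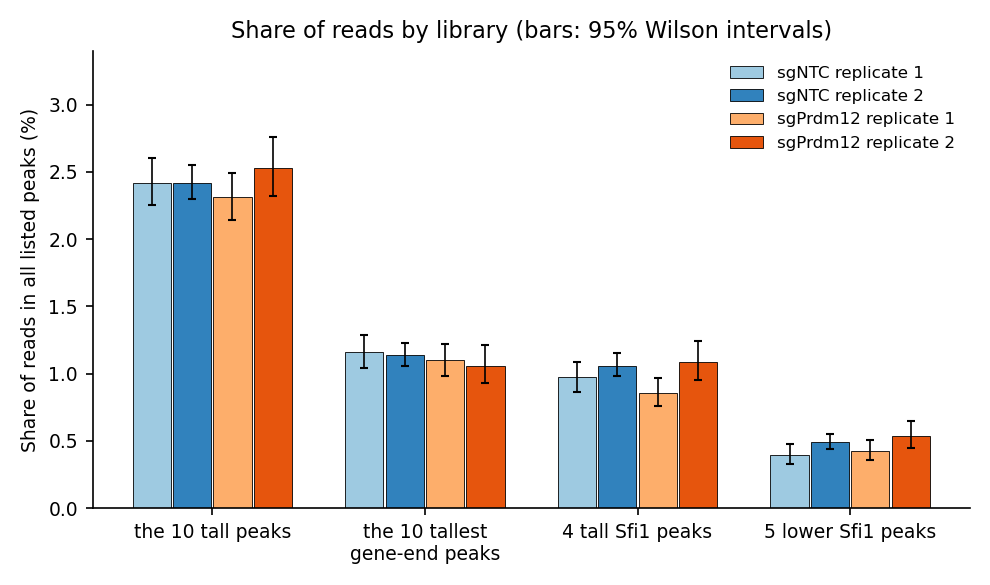
Share of the reads in all listed peaks (percent, from 0) for 4 sets of peaks in the 4 libraries, with 95% Wilson intervals. The 10 tall peaks hold 2.31 to 2.53% in every library and the 10 tallest gene-end peaks 1.06 to 1.16%, and the intervals of the 4 libraries overlap within each of these sets.

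No peak of the set passed the test for a difference between the groups. All 10 were among the 1125 peaks tested, and 0 passed an adjusted p of 0.05 in edgeR's quasi-likelihood test, where 0% of all tested peaks did. At an unadjusted p of 0.05, edgeR returned 1 of the 10 and 5.07% of all tested peaks, and DESeq2's Wald test returned 1 of the 10 and 0.879% of 3186 peaks, with 0 past its adjusted threshold. With batch as a block edgeR returned 1 of the 10 and 4.18% of all tested peaks. The log2 fold change, sgPrdm12 over sgNTC, ran from -0.32 to 0.79 with a median of 0.057, against a median of 0.02 over all tested peaks. It was above 0 at 6 peaks and below 0 at 4. The groups did not overlap at 4 of the 10, 3 with sgPrdm12 above and 1 with it below, where 34.3% of tested peaks did not overlap (16.4% above and 18% below), so the count is close to that of the table. These peaks hold many reads, and their standard errors were 0.19 to 0.28, against a median of 0.40 over all tested peaks, and the 95% interval lay within 2-fold at 9 of the 10 and at 31.5% of tested peaks.

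**Figure D3:**
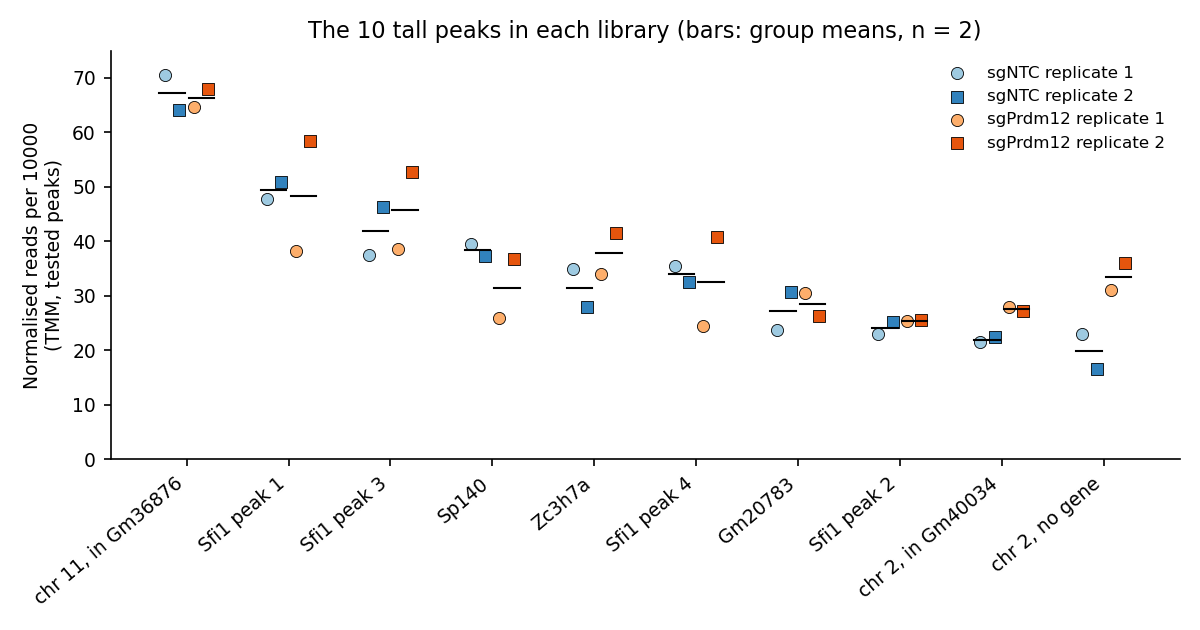
TMM-normalised reads per 10000 (of the reads in tested peaks) for each tall peak in each library, ordered by mean raw count, with short bars at the group means (n = 2). The 4 libraries overlap at most peaks, and at the chromosome 2 peak outside genes both sgPrdm12 libraries (31.1 and 36.0) lie above both sgNTC libraries (23.1 and 16.6).

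Sfi1 was the locus with most peaks. Its span on chromosome 11 (3131850 to 3203347, 71498 bases) held 9 listed peaks, all tested, of which 4 were tall. The tall ones are numbered 1 to 4 from the lower coordinate. Sfi1 peak 1 (3141313 to 3142754) held 93 and 202 raw reads in sgNTC and 75 and 73 in sgPrdm12. Scaled for depth these were 47.8 and 50.9 reads per 10000 in sgNTC and 38.2 and 58.4 in sgPrdm12, so the sgNTC libraries lay between the other two. Sfi1 peak 2 (3159636 to 3159936) had 23.1 and 25.2 normalised reads per 10000 in sgNTC and 25.5 and 25.6 in sgPrdm12, groups that did not overlap but differed by little. Sfi1 peak 3 (3193110 to 3193858) had 37.6 and 46.3 against 38.7 and 52.8 normalised reads per 10000. Sfi1 peak 4 (3198918 to 3199781), which lies 1763 bases from the predicted gene Gm51877 inside the span, had 35.5 and 32.5 against 24.5 and 40.8 normalised reads per 10000. At peaks 1, 3 and 4 the groups overlapped, with sgPrdm12 replicate 2 the highest library at each.

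The log2 fold changes at the 4 tall Sfi1 peaks, in the same order, were -0.08 ± 0.24, 0.07 ± 0.27, 0.07 ± 0.25 and -0.10 ± 0.27 (SE). The adjusted p was 0.997 at each (edgeR quasi-likelihood, Benjamini-Hochberg adjusted). Their 95% intervals together ran from -0.66 to 0.63, so a 2-fold change lay outside each of them. Within batch 1 the log2 ratios were -0.32, 0.14, 0.04 and -0.54, and within batch 2 they were 0.20, 0.02, 0.19 and 0.33. Peaks 1 and 4 thus differed in direction between batches.

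The 5 peaks of Sfi1 that the height rule left out did not pass the test either. Their log2 fold changes were -0.43 ± 0.41 at 3133511, 0.12 ± 0.32 at 3134851, 0.30 ± 0.31 at 3153076, 0.17 ± 0.32 at 3196051 and 0.18 ± 0.34 at 3196672, with edgeR adjusted p from 0.991 to 0.997. The last 2 overlap Fau-ps2, a pseudogene of the ribosomal protein gene Fau, and whether their reads also match other loci was not tested. The 5 lower peaks took 0.397% and 0.491% of reads in sgNTC and 0.424% and 0.539% in sgPrdm12. The 4 tall ones took 0.974% and 1.06% in sgNTC and 0.857% and 1.09% in sgPrdm12, a difference of -0.0445 percentage points between group means (1.02% ± 0.0602 and 0.972% ± 0.162, SD, n = 2; two-sided exact permutation test, p = 1.0). It was -0.117 within batch 1 and 0.0277 within batch 2.

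**Figure D4:**
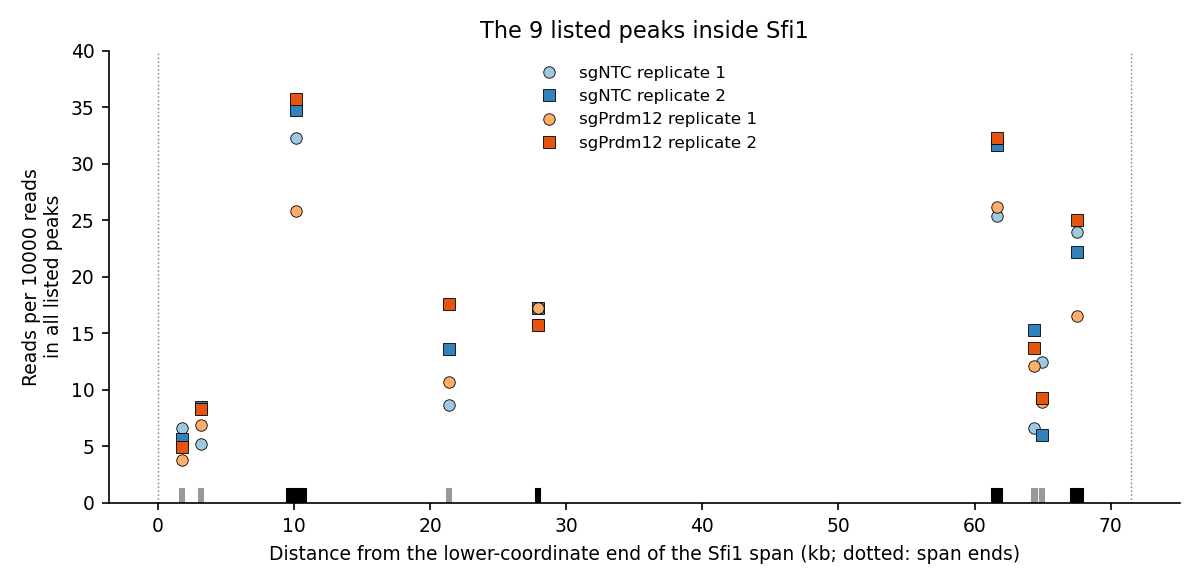
Reads per 10000 reads in all listed peaks, by library, at the centre of each of the 9 listed peaks in Sfi1, against the distance in kilobases from the lower-coordinate end of the span; black marks on the axis are the 4 tall peaks and grey marks the 5 lower ones. The peaks lie on either side of a stretch without listed peaks, between the tall peaks at 27786 and 61260 bases.

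The proportions among the tall Sfi1 peaks were alike in the 4 libraries. Of the reads of the 4 peaks, peak 1 took 33.2% and 32.8% in sgNTC and 30.1% and 32.9% in sgPrdm12. Peak 2 took 14.4% to 20.1%, peak 3 took 26.1% to 30.5% and peak 4 took 19.3% to 24.6%. For each peak the 95% Wilson intervals of the 4 libraries overlapped.

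For 1107 other tested peaks the depth-scaled pattern over the 4 libraries was compared with that of the summed tall Sfi1 peaks. The lower Sfi1 peaks and the chromosome 17 region were left out of this comparison. The most alike lay at Kdm4a, a histone demethylase gene, at Pcx, which encodes pyruvate carboxylase, and at Snrnp70, a spliceosomal protein gene. Their Euclidean distances were 0.093, 0.094 and 0.110 on the log2 scale, against a median distance of 0.751. With only 4 libraries this is a description of level and says nothing of common control.

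The Sp140 peak (chromosome 1, 85591158 to 85593402) was the widest of the 3187 listed peaks at 2245 bases. It lay inside the overlapping spans of Sp140 and Sp110, 3667 bases from an end of Sp140, so it cannot be assigned to one of these genes. It held 77 and 148 raw reads in sgNTC and 51 and 46 in sgPrdm12, or 39.6 and 37.3 normalised reads per 10000 in sgNTC and 26.0 and 36.8 in sgPrdm12. Both sgPrdm12 libraries were below both sgNTC libraries, replicate 2 by very little. The log2 fold change was -0.32 ± 0.26 (edgeR adjusted p = 0.969), with log2 ratios of -0.61 in batch 1 and -0.02 in batch 2. No other listed peak lay within 751325 bases.

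The Zc3h7a peak (chromosome 16, 11143951 to 11144287) lay inside the gene, 7357 bases from its end. It held 68 and 111 raw reads in sgNTC and 67 and 52 in sgPrdm12, or 35.0 and 28.0 against 34.1 and 41.6 normalised reads per 10000, and the groups overlapped. The log2 fold change was 0.28 ± 0.26 (edgeR adjusted p = 0.991). The ratio was -0.04 in batch 1 and 0.57 in batch 2. Its nearest listed neighbour was 357887 bases away, so the start of Zc3h7a itself had no listed peak.

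The Gm20783 peak (chromosome 9, 124424360 to 124425516) lay 814 bases from the end of the predicted gene. Its values were 23.7 and 30.7 normalised reads per 10000 in sgNTC and 30.6 and 26.4 in sgPrdm12, so the groups overlapped. The log2 fold change was 0.05 ± 0.27 (edgeR adjusted p = 0.997), and the log2 ratio was 0.37 in batch 1 and -0.22 in batch 2.

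The tallest of the set was a lone peak on chromosome 11 (109011647 to 109012122), inside the long non-coding RNA gene Gm36876 and 60864 bases from Axin2, a negative regulator of Wnt signalling. It ranked 4 in every library, behind the left-out chromosome 17 peaks. It held 137 and 255 raw reads in sgNTC and 127 and 85 in sgPrdm12, or 70.5 and 64.2 against 64.7 and 68.0 normalised reads per 10000. The means, 67.3 ± 4.42 and 66.3 ± 2.32 (SD, n = 2), were closer to each other than the replicates of either group. Its log2 fold change of -0.02 ± 0.19 (edgeR adjusted p = 0.997) had a 95% interval from -0.41 to 0.37, the narrowest of the set.

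The lone peak at the far end of chromosome 2 (181917583 to 181918141), inside the long non-coding RNA gene Gm40034, had 21.6 and 22.4 normalised reads per 10000 in sgNTC and 28.0 and 27.2 in sgPrdm12. The groups did not overlap, and the replicates of each lay close together. The log2 fold change was 0.32 ± 0.27 (edgeR adjusted p = 0.969), and it was 0.37 in batch 1 and 0.28 in batch 2. As a share of reads in all listed peaks the means were 0.150% ± 0.00507 and 0.178% ± 0.0162 (SD, n = 2; two-sided exact permutation test, p = 0.333, the smallest possible).

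The widest gap between the groups was at the other lone peak of chromosome 2 (98662366 to 98662922), which overlaps no annotated gene and lies 1030694 bases from the nearest protein-coding gene end, that of Lrrc4c. It held 45 and 66 raw reads in sgNTC and 61 and 45 in sgPrdm12, or 23.1 and 16.6 against 31.1 and 36.0 normalised reads per 10000. Both sgPrdm12 libraries were above both sgNTC libraries. The means were 19.9 ± 4.61 and 33.5 ± 3.47 (SD, n = 2), a log2 fold change of 0.79 ± 0.28 with a 95% interval from 0.21 to 1.37. The unadjusted p was 0.00923 and the adjusted p was 0.853 in edgeR's quasi-likelihood test, so the difference did not pass over the table. Without sgNTC replicate 2 the log2 fold change was 0.48, and 0 of the 10 peaks had an unadjusted p under 0.05. The direction was the same in both batches, with log2 ratios of 0.42 and 1.11. In sgNTC replicate 2, the deepest library, the peak ranked 20, and in the others it ranked 8 to 12. Its share of reads in all listed peaks was 0.157% (95% Wilson interval 0.117 to 0.209) and 0.114% (0.0894 to 0.145) in sgNTC and 0.210% (0.164 to 0.270) and 0.220% (0.165 to 0.295) in sgPrdm12 (two-sided exact permutation test, p = 0.333). The intervals of sgNTC replicate 1 overlapped with those of both sgPrdm12 libraries, and that of sgNTC replicate 2 with neither.

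**Figure D5:**
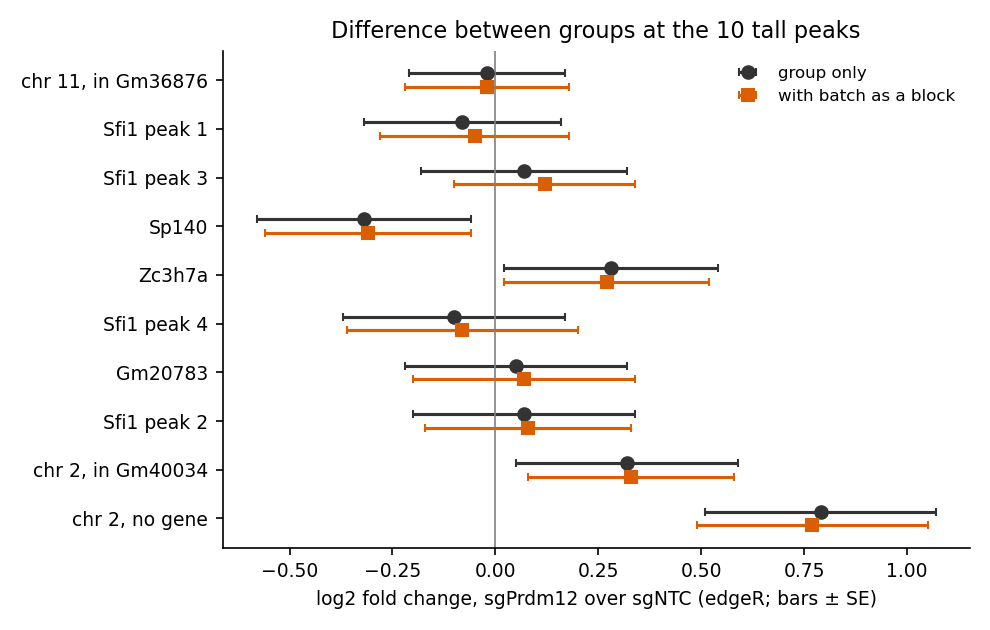
Log2 fold change, sgPrdm12 over sgNTC, at the 10 tall peaks from edgeR with group as the only term (circles) and with batch as a block (squares), with bars of 1 SE. At 9 of the 10 the group-only values lie between -0.32 and 0.32, and the chromosome 2 peak outside genes lies at 0.79 and, with the block, at 0.77.

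At that peak the authors' deposited table gave a log2 difference of 0.62 (standard error 0.45). In the authors' deposited table the value was -0.41 with a standard error of 0.40 at Sp140, 0.20 with 0.46 at the Gm40034 peak and 0.15 with 0.39 at Zc3h7a. For the other 6 peaks the authors' deposited table gave differences from -0.21 to 0.03. It gave -0.04 both at Sfi1 peak 2 and at Gm20783, where the edgeR values of 0.07 and 0.05 had the other direction. At the rest of the set the direction was the same as in edgeR.

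The listed peaks of genes related by function or family to Sfi1, Sp140 and Zc3h7a lay mostly at gene ends. Of 35 centrosome and spindle pole genes, 11 other than Sfi1 had a peak, and the highest of these held a mean of 33.8 reads, at Cep57, a centrosomal protein gene. Of their 6 tested peaks 0 passed edgeR's test in either direction, where 0% of all tested peaks passed and 5.07% had an unadjusted p under 0.05, and the median log2 fold change was -0.29 against 0.02 over all tested peaks. Cep57 had -0.26 ± 0.29, Tubg1, the main gamma-tubulin, had -0.34 ± 0.38, and Stil, a factor of centriole duplication, had -1.21 ± 0.61 at its gene-end peak, with 14 and 25 raw reads in sgNTC and 3 and 6 in sgPrdm12. The edgeR adjusted p was 0.997 for Cep57 and Tubg1 and 0.927 for Stil. The centrin gene Cetn3 had a peak below the count filter, with 9 and 12 raw reads in sgNTC and 18 and 7 in sgPrdm12.

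Of 16 speckled protein and nuclear body genes, 4 had a peak other than the one shared by Sp140 and Sp110. Another 2 were not found under the symbols used, and whether the gene table holds them under other names was not checked. Of 3 tested peaks 0 passed in either direction, with a median log2 fold change of 0.23. Sumo3, a small ubiquitin-like modifier, had 0.90 ± 0.50, and Trim28, a co-repressor that silences repeats, had 0.23 ± 0.32 (edgeR adjusted p of 0.927 and 0.997). Of 26 CCCH zinc finger genes, 6 other than Zc3h7a had a peak, and 0 of 4 tested peaks passed, with a median of -0.18. Zc3h10 had -0.73 ± 0.40 and Zc3h4 had -0.29 ± 0.41 (edgeR adjusted p of 0.927 and 0.997). The highest mean in these lists was 23.8 and 22.8 raw reads, below the tall peaks inside Sp140 and Zc3h7a with 80.5 and 74.5. The tall peaks were chosen by height, so this order is a description and not a result about the families.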

How the data were processed

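The authors deposited 1 table of peak regions with raw read counts per peak in each library, their log2 group means, a log2 difference and its standard error (used here as a score of error), per the file headers. Per the submitters' processing notes, build GRCm38 was used with MACS2, DiffBind, Bowtie2, Picard, cutadapt, ChIPseeker and HOMER; versions, and how reads with several matches were placed, were not given in the sources used here. That placement can set the counts at repeated sequence. Widths are those the authors deposited, in bases (other).

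Gene spans were those of RefSeq GRCm38.p6 (no strand, exons or introns). Counts were tested with edgeR 4.0.16 (R 4.3.3): TMM, filterByExpr with minimum count 10, robust quasi-likelihood fit, group only, Benjamini-Hochberg adjustment over 1125 peaks. Standard errors are the coefficient over the square root of F. Depth beyond listed peaks is unknown. The code was tested on simulated data. Alternatives included DESeq2 1.42.0, other scaling, no filter and left-out libraries. A batch block was also fitted, since the labels give same-numbered libraries the same batch (correlation of their deviations 0.059). Windows were compared with blastn 2.17.0. All members were named; 3 peaks most like Sfi1 were named by distance. Members and lists were chosen with earlier results of these data known. List genes with values, and Gm51877, were picked after their values were seen.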

Additional observations from a re-analysis of the deposited data

How the results depend on the processing

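The count of tall peaks past the adjusted threshold was 0 under every alternative run (DESeq2's size factors, DESeq2's test, no count filter, library sizes without the tall peaks, the batch block and each library left out), and so was the count over the whole table. The replicate block changed no call. It returned 47 of 1125 peaks at an unadjusted p of 0.05 (4.18%), against 57 without it.

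The share difference of the 10 peaks was -0.000443 percentage points, so small that its direction turned with many choices: 0.134 over reads in tested peaks, 0.164 over reads in gene-end peaks, 0.0683 with a limit of 40 reads and 0.000538 beyond 1000 bases. With a limit of 75 reads, which leaves 4 peaks, it was -0.113 (two-sided exact permutation test, p = 0.333, the smallest possible). With a library left out, the difference of the 10 peaks ran from -0.112 to 0.112. With the pairing by batch it stayed at -0.000443. For the Sfi1 peaks, -0.0445 became 0.0123 over reads in gene-end peaks and ran from -0.159 to 0.0703 with a library left out; with all 9 Sfi1 peaks, an alternative chosen after seeing the data, it was -0.00712. The Gm40034 peak kept its direction (0.0168 to 0.0397 with a library left out), as did the chromosome 2 peak outside genes (0.0586 to 0.102). The latter was analysed by share as a result chosen after seeing the data.

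With a library left out, the log2 fold change ran from 0.48 to 1.01 at the chromosome 2 peak outside genes, -0.61 to -0.04 at Sp140, 0.06 to 0.45 at Zc3h7a, 0.29 to 0.31 at Gm40034 and 0.01 to 0.10 at Sfi1 peak 2. At the other 5 peaks the direction turned, with ranges of -0.131 to 0.056 at Gm36876, -0.431 to 0.245, -0.198 to 0.315 and -0.515 to 0.288 at Sfi1 peaks 1, 3 and 4, and -0.091 to 0.234 at Gm20783. Besides these ends, it turned to 0.033 at Gm36876 and -0.072 at Gm20783 without sgPrdm12 replicate 1, and to -0.022 at Sfi1 peak 3 without sgNTC replicate 1. Without the count filter it was -0.002 at Gm20783. In such fits the lone library of a group is assumed to vary like the others. The cause was not tested. The set itself was the same 10 peaks with equal weight of the libraries or a limit of 250 bases.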
